A study of Homo sapiens with 5 samples.

Results

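The 6 long noncoding RNAs described here were PCA3, PCGEM1, PCAT1, MALAT1, NEAT1 and H19, of 22889 genes in the RNA table. They were chosen by symbol, from what the genes are known for, with earlier results of these data known. Each was found through 1 RefSeq accession. The series was made to study LSD1, a histone demethylase whose gene is KDM1A, in cells that respond to androgen. Its 5 samples made up 5 groups without replicates. LNCaP cells transfected with an siRNA against LSD1 were set against LNCaP cells transfected with a control siRNA, by RNA-seq. The other samples were ChIP-seq peak lists of untransfected cells, namely LSD1 in each line and, in LNCaP, H3T6ph, the phosphorylated threonine at position 6 of histone H3. All cells were starved of steroids in charcoal-stripped serum for 3 days before a hormone stimulus that the labels do not name. LNCaP and VCaP are androgen-responsive human prostate cancer lines. RNA of VCaP was not analysed here, so every expression value is from LNCaP.

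Long noncoding RNAs act as RNA and are not translated. NEAT1 is the scaffold of paraspeckles, nuclear bodies that hold RNA-binding proteins, and MALAT1 collects in nuclear speckles, where splicing factors are stored. PCA3, PCGEM1 and PCAT1 are known from prostate cancer, and PCA3 is measured in urine as a diagnostic marker. PCGEM1 and PCA3 have been described as androgen-induced. H19 is an imprinted RNA transcribed from the maternal allele next to IGF2, and it is the precursor of the microRNA miR-675.

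Start regions are shown because that of MALAT1 differed from those of PCA3 and PCGEM1 in base composition and in motifs. RefSeq (GRCh38.p14) start regions, 250 bases before to 50 after the gene start, were found for 4 of the 6. Those of PCA3, PCGEM1 and MALAT1, 5′ to 3′ on the gene's strand, are given, and that of H19 is not shown. MALAT1 has 2 starts listed, and only the first is described here. Capitals mark every match to AGAACA (the androgen receptor half-site), GGGCGG (the GC box) or TATAAA, on either strand. They lie at chr9:76764186-76764485, chr2:192749595-192749894 and chr11:65497488-65497787, all on the plus strand.
PCA3: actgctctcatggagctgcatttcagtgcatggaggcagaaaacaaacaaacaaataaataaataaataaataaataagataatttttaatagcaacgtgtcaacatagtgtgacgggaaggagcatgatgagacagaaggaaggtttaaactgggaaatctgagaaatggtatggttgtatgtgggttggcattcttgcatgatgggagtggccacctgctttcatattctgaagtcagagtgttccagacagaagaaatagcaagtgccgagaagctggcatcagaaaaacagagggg
PCGEM1: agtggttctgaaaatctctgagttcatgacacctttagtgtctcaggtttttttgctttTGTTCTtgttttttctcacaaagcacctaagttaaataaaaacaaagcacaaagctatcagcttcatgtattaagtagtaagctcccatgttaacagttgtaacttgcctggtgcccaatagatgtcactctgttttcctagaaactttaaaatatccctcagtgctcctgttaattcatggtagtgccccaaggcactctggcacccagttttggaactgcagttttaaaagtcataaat
MALAT1: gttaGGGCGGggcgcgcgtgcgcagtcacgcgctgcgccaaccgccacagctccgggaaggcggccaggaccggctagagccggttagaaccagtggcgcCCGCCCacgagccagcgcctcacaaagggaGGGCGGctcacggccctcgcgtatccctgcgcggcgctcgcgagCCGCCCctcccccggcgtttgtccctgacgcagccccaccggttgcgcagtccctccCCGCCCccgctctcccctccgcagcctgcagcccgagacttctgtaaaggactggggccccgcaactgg

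The MALAT1 start region was rich in G and C, at 73.7%, with 5 GC boxes, while PCA3 and PCGEM1 held none and were at 40.7 and 38.0% G and C. The median over 27305 genes was 58.3%. PCGEM1 held 1 androgen receptor half-site, beginning 191 bases before the gene start, and the other start regions shown held none. A half-site was present in 14.9% of all start regions, a GC box in 44.6% and TATAAA in 3264 of 27305. The full androgen response element, which joins the half-site on both strands around a 3-base spacer, was in none of the regions shown and in 0.00366% of all. These matches describe letters in a window and do not show binding.

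H19 holds the microRNA gene MIR675 (RefSeq, GRCh38.p14, chromosome 11, minus strand). The mature forms of miR-675 are shown with the seed, bases 2 to 8, in capitals. The forms come from opposite arms of 1 hairpin and have different seeds.
hsa-miR-675-5p: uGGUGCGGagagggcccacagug
hsa-miR-675-3p: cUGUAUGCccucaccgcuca

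The RNA samples bore the marks of their labels. KDM1A, the target of the siRNA, was at 6.87 FPKM with LSD1 siRNA, 18.6% of the 37.0 FPKM with control siRNA. FPKM counts fragments relative to transcript length and library size, so levels of different genes can be set side by side. All 11 luminal prostate markers reached 1 FPKM, with the keratin gene KRT8 at 718 FPKM after LSD1 siRNA and 929 FPKM with control siRNA. None of the 5 basal markers reached 1 FPKM, and their summed level was 1.28 FPKM after LSD1 siRNA and 0.785 FPKM with control siRNA. Of 7 stromal and 6 immune markers, 1 each reached that level, COL1A1 (11.7 and 8.77 FPKM) and LYZ (1.76 and 1.68 FPKM, LSD1 siRNA and control siRNA). Luminal markers had a median log2 fold change of -0.35 with 10 of 11 below 0, and summed to 4340 FPKM after LSD1 siRNA and 5436 FPKM with control siRNA. The part of this in the values of the 6 RNAs was not tested. The estimated depth of the LSD1 siRNA library was 25.5 M fragments, 77.3% of the control library.

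With 1 library per group no difference has an error between replicates, and no test across samples was possible. Genes were compared where either library reached 1 FPKM, and a gene was called higher or lower past 2-fold on the log2(FPKM + 1) scale. That scale understates the change of low genes. NEAT1, MALAT1 and PCGEM1 entered it. PCA3, H19 and PCAT1 lay below. None of the 3 members compared was called, and none passed 1.5-fold. Over all 12916 genes tested, 0.844% were called higher and 1.13% lower by the 2-fold rule. Over the 493 noncoding RNA genes of 300 bases or more that were tested, the share was 0.203% in either direction. At 1.5-fold the shares were 1.91% higher and 2.41% lower over all genes, and 1.42% higher and 1.22% lower over noncoding RNA genes. The authors' deposited table called no accession of the 6 members, against 0.906% of the 12916 genes at 1 FPKM or more with a called accession. PCA3, PCAT1 and H19 are outside that set, and the authors' program did not test PCAT1 and H19.

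NEAT1 was the most abundant of the 6, at 466 FPKM after LSD1 siRNA and 552 FPKM with control siRNA. In bulk RNA, fewer cells with a transcript and less of it per cell cannot be told apart. NEAT1 had rank 2 among 1752 noncoding RNA genes in both libraries. Its level after LSD1 siRNA was 84.4% of control, a log2 fold change of -0.24, the largest difference of the members that were tested. These levels rested on an estimated 41982 and 64339 fragments in the LSD1 siRNA and control libraries, which gives a 95% interval of -0.26 to -0.23 (exact binomial, counting error only). Counting error was therefore much smaller than the difference, while the error between cultures is unknown. The authors' deposited table gave NEAT1 a p of 0.411 and a q of 1.00. Of all genes tested, 25.2% had a difference at least as far from 0. Among 762 genes of 300 bases or more at 100 FPKM or more in either library, 13.0% had a value as low, with an SD across these genes of 0.24. The accession in the table covers the short NEAT1 form, of 3735 bases (chromosome 11, 65190269 to 65194003, hg19), so the long form that scaffolds paraspeckles was not measured on its own.

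MALAT1 (chromosome 11, 65265233 to 65273939, hg19) was at 164 FPKM after LSD1 siRNA and 167 FPKM with control siRNA. The library values lay within 2% of one another, and MALAT1 had rank 6 among noncoding RNA genes in both. Its log2 fold change was -0.03, with a counting interval of -0.05 to -0.01 from an estimated 35621 and 46933 fragments in the LSD1 siRNA and control libraries. Of the genes at 100 FPKM or more, 49.2% had a value as low. The authors' p was 0.926 in the deposited table. NEAT1 was 2.84 times as abundant as MALAT1 per length after LSD1 siRNA and 3.30 times with control siRNA.

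PCGEM1 (chromosome 2, 193614571 to 193641625, hg19) was the only prostate RNA of the 6 above 1 FPKM. It was at 1.75 FPKM after LSD1 siRNA and 2.03 FPKM with control siRNA, which made NEAT1 266 and 272 times as abundant in the same order. The log2 fold change was -0.14, and 22.1% of the 2395 genes of 300 bases or more with a mean level of 1 to 4 FPKM had a value as low. The authors' deposited table gave a p of 0.579. Androgen-induced genes, a list of 14 that did not include PCGEM1, had a median of -0.37 with 13 of 14 below 0, against -0.01 over all genes tested. Of the 14, 4 passed 1.5-fold lower and none 1.5-fold higher. STEAP4, a metalloreductase gene, was at 2.52 FPKM after LSD1 siRNA and 9.89 FPKM with control siRNA (-1.63), the only one past 2-fold and the only one called in the authors' deposited table. FKBP5, a co-chaperone of steroid receptors, was at 115 FPKM after LSD1 siRNA and 190 FPKM with control siRNA. PCGEM1 lay nearer to 0 than the median of that list, and the difference between them was not tested.

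PCA3 was at 0.544 FPKM after LSD1 siRNA and 0.617 FPKM with control siRNA, with a log2 fold change of -0.07 and an authors' p of 0.987 in the deposited table. It is transcribed from within PRUNE2, a protein-coding gene on the opposite strand, and the table gives both the same interval (chromosome 9, 79226292 to 79521003, hg19). PRUNE2 was at 171 FPKM after LSD1 siRNA and 216 FPKM with control siRNA, a log2 fold change of -0.33. PRUNE2 was thus 315 and 350 times as abundant as PCA3 in the LSD1 siRNA and control libraries. The RNA kit does not mark strand, so low PCA3 values cannot be told apart from reads of PRUNE2 precursor RNA.

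PCAT1 (chromosome 8, 128025399 to 128033259, hg19) was listed at 0 FPKM in both libraries. For a transcript of 2 kb, 3 fragments, the limit that a count of 0 allows, would give 0.0655 FPKM in the LSD1 siRNA library and 0.0506 FPKM in the control library. PCAT1 was not detectable in LNCaP at this depth. MYC, the oncogene of the same chromosome region, was at 63.5 FPKM after LSD1 siRNA and 93.5 FPKM with control siRNA (log2 fold change -0.55, authors' p 0.00736 and q 0.328 in the deposited table). The nearest genes of the table on either side were LRATD2 (log2 fold change -0.06) at 455 kb and POU5F1B (0.04) at 395 kb.

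H19 (chromosome 11, 2016406 to 2019065, hg19) was at 0.168 FPKM after LSD1 siRNA and 0.0719 FPKM with control siRNA. The FPKM ratio of 2.33 rested on very few fragments. The whole-number pair that fits the values is 9 fragments after LSD1 siRNA and 5 with control siRNA, with a counting interval of 0.701 to 8.85 for the ratio. That interval includes no change, and on the log2(FPKM + 1) scale the difference was 0.12. The authors' program did not test H19, and the deposited table lists a p of 0.213. MIR675, the gene of the microRNA made from H19, was listed at 0 FPKM in both libraries, though values of genes this short are not reliable.

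**Figure D1:**
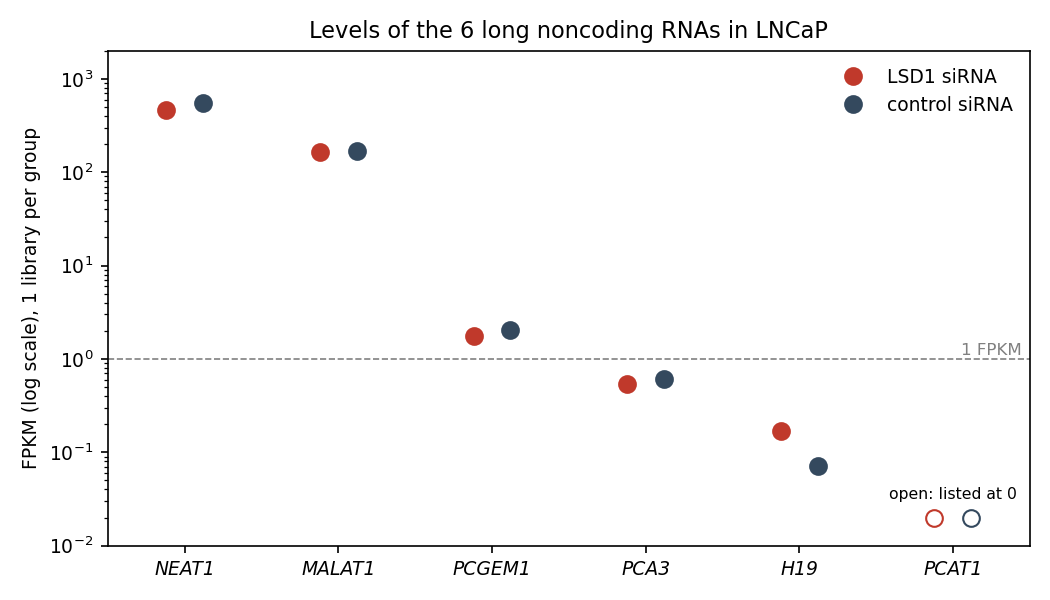
FPKM on a log axis for each of the 6 RNAs in the LSD1 siRNA library (red, left) and the control siRNA library (dark, right), 1 library per group and no error bars. NEAT1 and MALAT1 lie between 164 and 552 FPKM, PCGEM1 at 1.75 and 2.03 FPKM, PCA3 and H19 below 1 FPKM, and PCAT1 is listed at 0 in both.

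**Figure D2:**
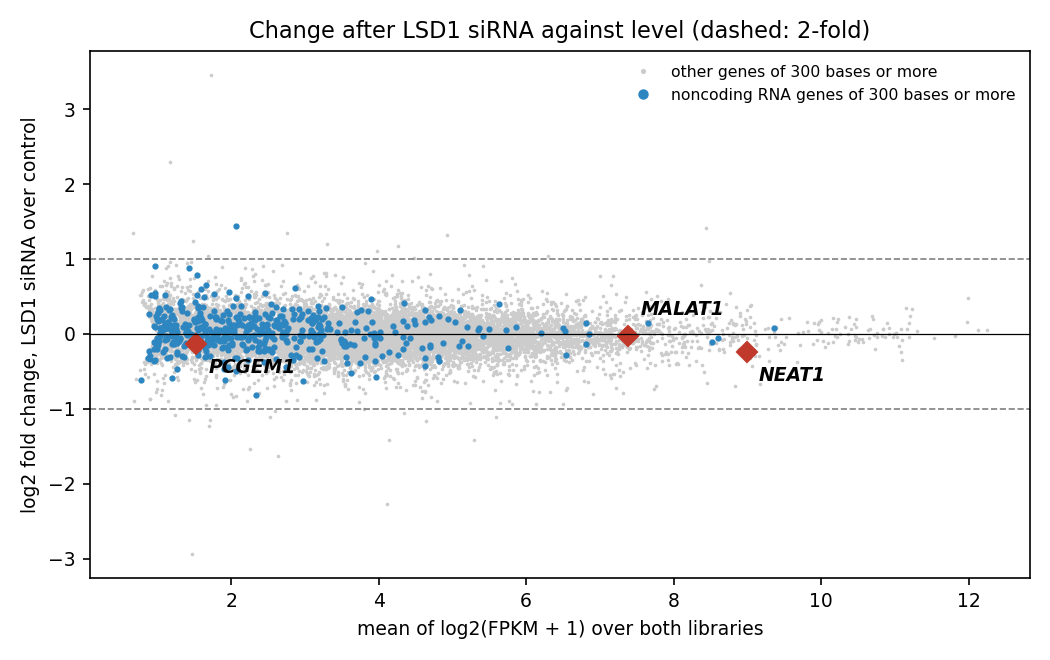
Log2 fold change of LSD1 siRNA over control siRNA (vertical axis) against the mean of log2(FPKM + 1) over both libraries (horizontal axis), 1 point per gene of 300 bases or more, with 2-fold dashed. NEAT1 (-0.24), MALAT1 (-0.03) and PCGEM1 (-0.14) lie inside the cloud of genes of like level.

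The 3 tested members were also set beside the noncoding RNA genes with the most similar pair of levels, over 2 libraries. PCGEM1 lay closest to LINC00630 (1.76 FPKM after LSD1 siRNA and 2.07 FPKM with control siRNA, distance 0.02 on the log2 scale) and ZNF436-AS1 (distance 0.062). At this low level likeness says little, since 42 noncoding RNA genes lay within 0.25 of PCGEM1. For MALAT1, ZFAS1 lay at a distance of 0.39 (209 and 190 FPKM). NEAT1 had no noncoding gene within 0.25. Its nearest were the small nucleolar RNA host genes GAS5 (382 and 396 FPKM, distance 0.56) and SNHG29 (678 and 640 FPKM, distance 0.58). In each pair of levels the LSD1 siRNA value is given before the control value.

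The measured genes of the long noncoding RNA lists also stayed below 1.5-fold, with values on both sides of 0. Over noncoding RNA genes 1.42% were 1.5-fold higher and 1.22% lower, so none in lists this small is not read as a result. Of 33 prostate-related long noncoding RNAs listed, 15 were in the table and 7 reached 1 FPKM, with none past 1.5-fold, 4 above 0 and 3 below. Their median log2 fold change was 0.03, against 0.03 with an SD of 0.25 over all 493 noncoding RNA genes, and 4 of the 7 lay farther from 0 than NEAT1. The most different was HOXA11-AS, at 1.37 FPKM after LSD1 siRNA and 0.630 FPKM with control siRNA (0.54). CBR3-AS1, an antisense RNA described in prostate cancer, was at 16.5 and 11.6 FPKM in the same order (0.47), LINC00963 was at 0.41 and SOCS2-AS1, described as androgen-induced, at -0.44. Of 39 widely expressed ones, 23 were measured, none passed 1.5-fold and 16 lay below 0, with a median of -0.11, against 219 of 493 noncoding RNA genes below 0. CYTOR (-0.44), SNHG15 (-0.43) and RPPH1 (-0.37) had the lowest values of those named by size, and SNHG5 the highest (0.40). RPPH1 is an RNase P RNA, counted among the 23 and the 16 below 0 but outside the 493.

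Genes of the nuclear bodies that hold NEAT1 and MALAT1 did not pass 1.5-fold either, a size passed by 1.91% of all genes as higher and 2.41% as lower. Of 36 measured paraspeckle protein genes none passed it, 20 lay below 0 and the median was -0.06, against 6793 of 12916 genes below 0 and a median of -0.01 overall. The core paraspeckle proteins SFPQ, NONO and PSPC1 were at -0.26, 0.00 and -0.12. FAM98A was the lowest (-0.41) and RBM7, a subunit of an RNA exosome adaptor, the highest (0.33), while HNRNPF was at -0.25. Of 38 nuclear speckle protein genes none passed 1.5-fold, 29 lay below 0 and the median was -0.12, lower than over all genes, a difference that was not tested. The scaffold genes SON and SRRM2 were both at -0.20. The extremes named by size were THRAP3 (-0.32), SRSF6 (-0.31) and U2AF1 (0.31).

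Genes listed as imprinted, as H19 is, had 15 measured members with a median of 0.18, and 11 of the 15 lay above 0, against 6123 of 12916 genes overall. Whether each of them is imprinted in these human cells was not measured. Only PHLDA2, an imprinted growth restrainer in the H19 region of chromosome 11, passed 1.5-fold, at 40.6 FPKM after LSD1 siRNA and 26.6 FPKM with control siRNA (0.59). Over all genes 1.91% were 1.5-fold higher. GRB10, an adaptor that restrains insulin signalling, and IGF2R, the receptor that clears IGF2, were both at 0.54, and SLC67A1, an older name of which is SLC22A18, at 0.43. IGF2, the partner of H19, was at 0.338 FPKM after LSD1 siRNA and 0.307 FPKM with control siRNA, below the threshold. The authors' deposited table called none of the 15.

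**Figure D3:**
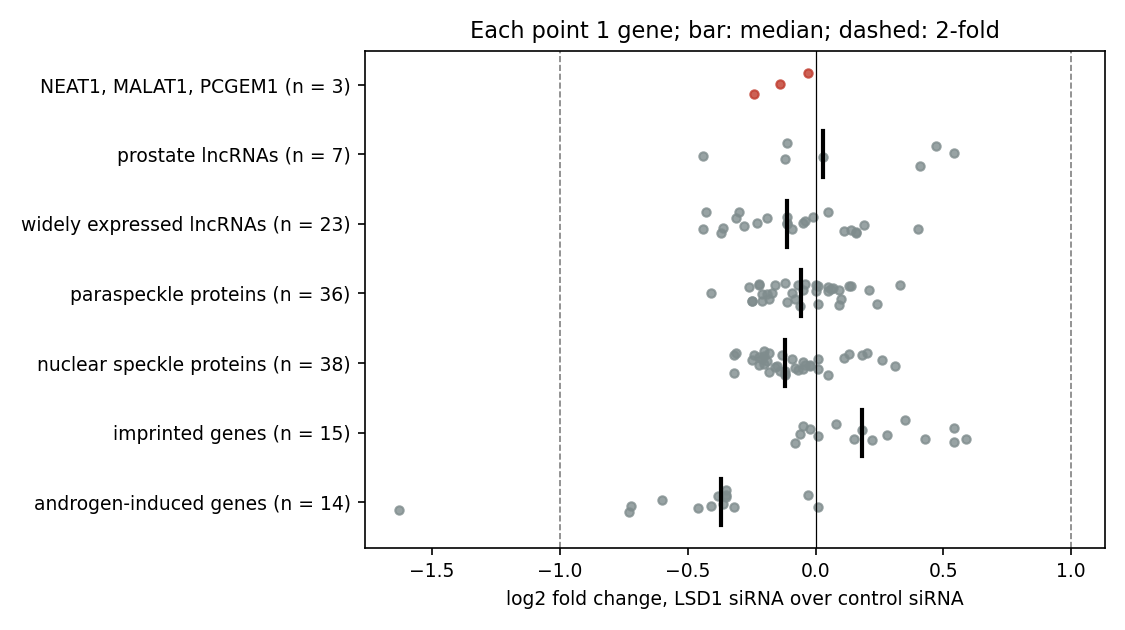
Log2 fold change of LSD1 siRNA over control siRNA for NEAT1, MALAT1 and PCGEM1 and for the measured genes of 6 lists, 1 point per gene, with a bar at each list's median. The lncRNA and nuclear body lists centre between -0.12 and 0.03, imprinted genes at 0.18 and androgen-induced genes at -0.37.

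Of 32 genes listed for the regions around the members, 21 reached 1 FPKM, with 6 above 0, 15 below and a median of -0.15, against 6793 of 12916 genes below 0 and a median of -0.01 overall. The 21 include MIR612, whose value is not reliable because the gene is short. FRMD8, 9.27 kb from NEAT1, was at 0.11. GCNT1, 104 kb from the interval shared by PCA3 and PRUNE2, was at -0.48. FOXB2 on its other side was below 1 FPKM. PCGEM1 lay in a region with few genes. TMEFF2, 555 kb away, was at 0.09. SLC39A10, a zinc transporter gene 2880 kb away, was at 17.5 FPKM after LSD1 siRNA and 30.3 FPKM with control siRNA (-0.76). It was the only one of these 21 genes called in the authors' deposited table, against 0.906% of the 12916 genes. With 21 genes, 1 call is not read as a result about these regions. Next to H19, MRPL23-AS1 at 5.25 kb was at -0.07.

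Peaks were then counted within 20 kb of each gene interval, as the table gives it. LSD1 in LNCaP had a peak near 3 of the 6 members (PCA3, PCAT1 and MALAT1), against 37.3% of all genes of 300 bases or more and 39.8% of noncoding RNA genes. LSD1 in VCaP had one near MALAT1 only, 1 of 6, against 36.2% and 34.5%. H3T6ph in LNCaP also had one near MALAT1 only, against 16.5% and 18.9%. With 6 genes, these counts are not read as more or less than the background shares. PCGEM1, NEAT1 and H19 had no peak of any list within 20 kb, and no peak of any list met the interval of a member other than the one PCA3 shares with PRUNE2. The ranks given here order peaks by the authors' score inside 1 list.

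MALAT1 was the only member with a peak of all 3 lists within 20 kb. The LNCaP LSD1 peak lay 9.88 kb from its low-coordinate end (chromosome 11, 65254569 to 65255347, rank 8245 of 11673 by score). In VCaP there were 4 LSD1 peaks in that range, the nearest 3.83 kb past the high-coordinate end (65277770 to 65278967) and the highest-scoring at 65283655 to 65285275, rank 1422 of 9854. The H3T6ph peak lay at 65290265 to 65290674, 16.3 kb away, next to the VCaP LSD1 peak at 65291216 to 65292351, 17.3 kb away. None of these peaks shared a base with a peak of another list.

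NEAT1 and MALAT1 are neighbours, 71.2 kb apart. Across the stretch from 20 kb before NEAT1 to 20 kb past MALAT1 there were 6 LSD1 peaks in VCaP, against 1 in LNCaP and 1 H3T6ph peak. Within 100 kb of either gene VCaP had 7 LSD1 peaks, a number reached by 1.16% of all genes and 0.970% of noncoding RNA genes. LNCaP had 2, reached by 38.1% of all genes. H3T6ph had 3 peaks within 100 kb of NEAT1, reached by 3.47% of all genes and 4.11% of noncoding RNA genes, and 1 within 100 kb of MALAT1, reached by 37.1% of all genes. Of the 7 peaks 6 are the same for both genes, so they are not separate observations. The nearest VCaP peak to NEAT1, at 65221733 to 65223526, lay 27.7 kb away and ranked 453 of 9854. This window was chosen after the peaks were seen.

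PCA3 and PRUNE2 shared 7 LNCaP LSD1 peaks within 20 kb of their interval, 6 of them inside it, and none from the other lists. The highest-scoring was at chromosome 9, 79414167 to 79415031, rank 1983 of 11673, and the widest at 79442148 to 79443438, 1291 bases. The interval is 295 kb long, and long intervals hold more peaks. Among 1858 genes with intervals of at least 200 kb, the median was 2 LNCaP LSD1 peaks, and 2.53% had as many as 7. As many as 7 with no VCaP LSD1 peak occurred in 7 of the 1858, 0.377%. PCA3 and PRUNE2 are themselves among the 1858 and are counted in both shares. The rule was read off this interval, so the shares describe it and are not an independent measure of rarity. Which of the 7 LNCaP LSD1 peaks lie near PCA3 itself was not analysed here, because the table gives no separate hg19 position for it.

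PCAT1, which was not detected in LNCaP RNA, had an LNCaP LSD1 peak 1.22 kb from its low-coordinate end (chromosome 8, 128023593 to 128024175, rank 9565 of 11673). This was the closest peak to any member outside the PRUNE2 interval. The nearest VCaP LSD1 peak, at 128053528 to 128056618, lay just past the limit, at 20.3 kb. The nearest H3T6ph peak was 80.5 kb away.

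PCGEM1 had no peak of any list within 100 kb. The distance to the closest peak was 119 kb for LSD1 in LNCaP, 480 kb for LSD1 in VCaP and 698 kb for H3T6ph. H19 had its nearest LNCaP LSD1 peak at 94.8 kb, on the side of IGF2, its nearest VCaP LSD1 peak at 163 kb and its nearest H3T6ph peak at 54.2 kb. A site below the authors' threshold is left out of a called list, so a gene with no peak nearby may still be bound.

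**Figure D4:**
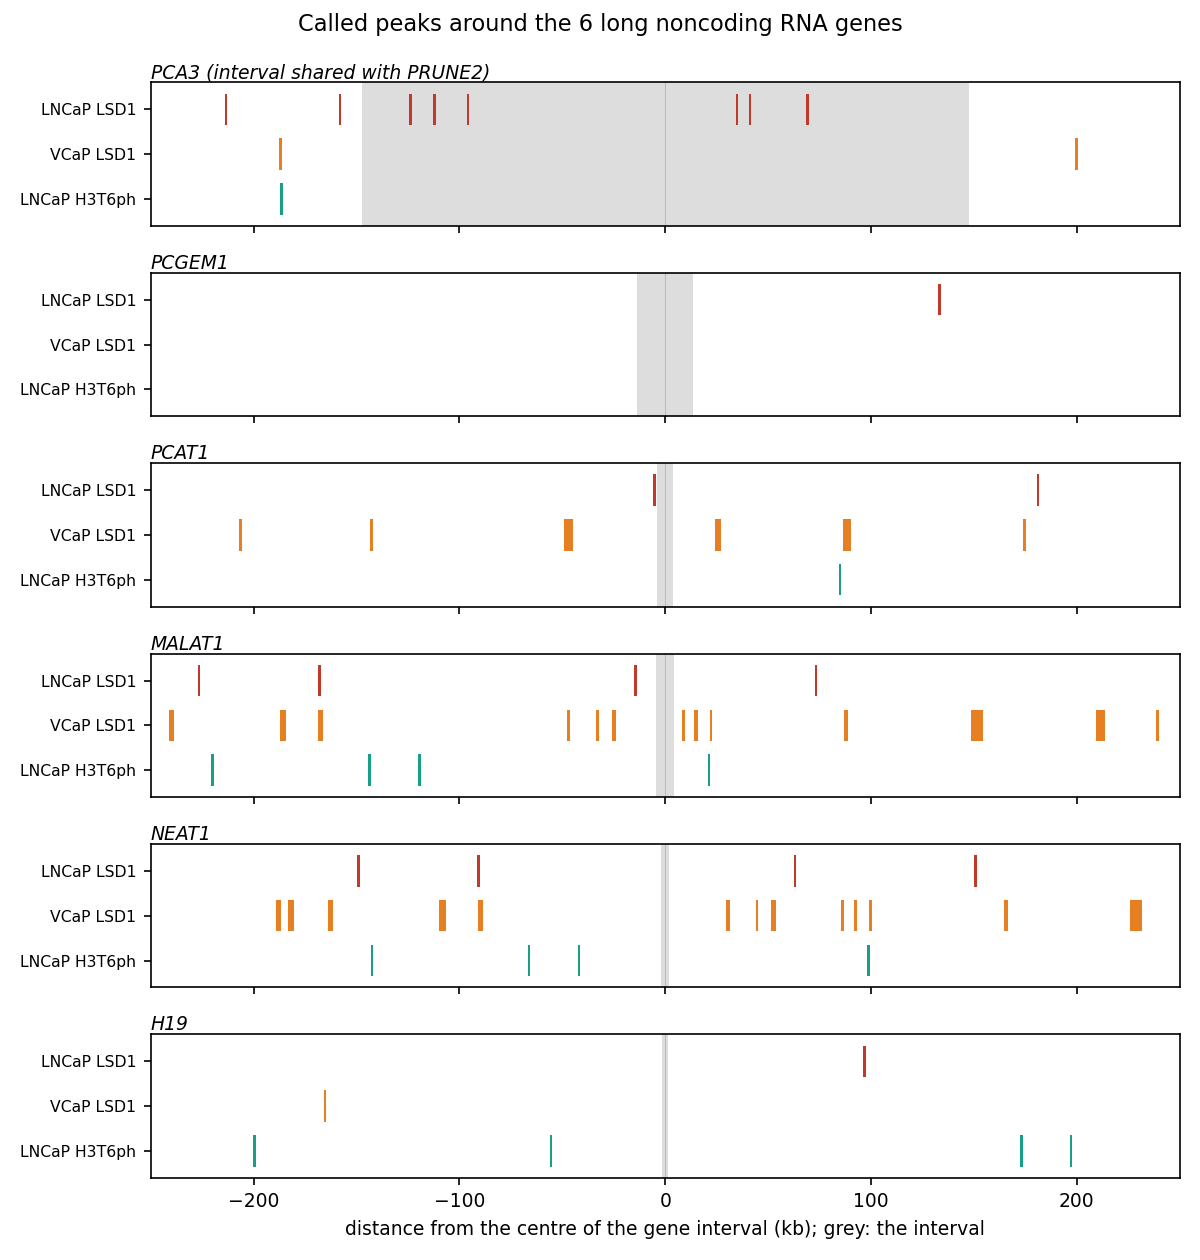
Called peaks of the 3 lists by distance in kb from the centre of each gene interval (grey), out to 250 kb, with each peak drawn at least 1.2 kb wide. The interval that PCA3 shares with PRUNE2 holds 6 LNCaP LSD1 peaks, in separate groups on either side of its centre, VCaP LSD1 peaks are most frequent around NEAT1 and MALAT1, and PCGEM1 has a single peak in view.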

How the data were processed

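Build hg19 and the tools TopHat2 2.0.4, Bowtie2 2.0.0, Cuffdiff 2.0.1 and MACS2 are named in the submitters' processing notes. The authors deposited FPKM per RefSeq accession, 1 value per library, with their p-value and q-value, per the file headers. The authors deposited a score with each peak, 1 list per sample. Neither its scale nor the control track is given in the sources used here. Symbols came from RefSeq (GRCh38.p14) for 38934 of 40253 accessions (96.7%). FPKM was summed per symbol, and 42 genes with a failed accession were left out. Distances were measured between the ends of intervals, with hg19 positions as deposited. The ratio of depths came from 2512 low values. Their commonest ratio, held by 315, made 1 fragment worth 1.29 times more in the LSD1 siRNA library. Depth itself came from a line fitted to olfactory receptor genes without introns that were taken to hold 1 fragment. There were 24 such genes in the LSD1 siRNA library and 19 in the control library. With that fit 44 of 44 and 43 of 43 olfactory receptor genes, in the same order, had whole fragments within 0.05. These include the fitted genes. Fragments of NEAT1 and MALAT1 took the interval as the transcript. Noncoding RNA genes are RefSeq lncRNA, antisense or other ncRNA genes of 300 bases or more.

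The members and lists were chosen with earlier results of these data known. The text names every member, KDM1A, up to 4 genes per list with the largest absolute change, the 2 noncoding genes nearest in level, neighbours and nearest peaks. NONO, PSPC1, SON and SRRM2 were added for their roles, after their values were seen. Some results that the rule takes in are not reported here. Python 3.11.15, pandas 2.3.3 and scipy 1.17.1 were used, and fold and distance steps were tested on simulated data.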

Additional observations from a re-analysis of the deposited data

How the results depend on the processing

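No member was called at 2-fold under pseudocounts of 0.1 and 5 FPKM, upper-quartile scaling or the highest accession only. None was called with no filter on low values, at a minimum of 5 FPKM or at 1.5-fold. Over all genes tested, the 2-fold settings called 0.476 to 1.18% higher and 0.638 to 1.39% lower. The 1.5-fold rule called 1.91% higher and 2.41% lower. With so few members, the absence of a call is not read as a result about them. For PCA3, H19 and PCAT1 these settings could not have given a call. Removing the filter kept the constant of 1 FPKM, with which a gene below 1 FPKM in both libraries cannot reach 2-fold. The other settings kept a filter that leaves these 3 members out. The minimum of 5 FPKM also left out PCGEM1, so 2 members were tested there. With a pseudocount of 5 FPKM, PCGEM1 could not have been called lower, because its control level was only 2.03 FPKM. Each member has 1 accession, so the highest accession only could not change any member. With a pseudocount of 0.1 FPKM the log2 fold change of H19 was 0.64 in place of 0.12, as the smaller constant lets values below 1 FPKM count. NEAT1 stayed between -0.24 and -0.22, and upper-quartile scaling, which moved the median of all genes by 0.02, put MALAT1 at 0.00. Peak counts depended on the distance and on the score. Within 50 kb VCaP LSD1 had a peak near 4 members (PCA3, PCAT1, MALAT1 and NEAT1) and H3T6ph near 3, and within 5 kb H3T6ph was near 0. Among peaks scoring at or above their list's median LNCaP LSD1 was near 1 member, PCA3, and H3T6ph near 0. Without PCA3, an alternative added after seeing the data, LNCaP LSD1 was near 2 of 5. Shares over all genes were computed only at 20 kb with the full lists. A wider window takes in more peaks for every gene, so these changes are not read as results about the members. Of 30 list medians under alternatives 25 kept within 0.1 of their value and their sign, and the other 5 moved only when low values were kept. No paired analysis was possible because each group held 1 sample. PCA3, H19 and PCAT1 lay below 1 FPKM, the threshold set here, and at this depth H19 rested on very few fragments.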

Other observations

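The RNA table has 1 other feature over the NEAT1 gene. MIR612, a microRNA gene of 100 bases that RefSeq places inside the long form of NEAT1 (22743 bases in all), lay 17.9 kb past the short form. It was listed at 226 FPKM after LSD1 siRNA and 34.9 FPKM with control siRNA, a log2 fold change of 2.66, and was not called in the authors' deposited table. Genes this short are below the fragment length that the depth estimate takes off, so this value is not a reliable measure of either RNA, and its part in the NEAT1 difference was not tested.

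The 3 VCaP LSD1 peaks within 100 kb of PCAT1 were among the widest of their list, at 4007, 3091 and 3566 bases against a median of 850. Peaks at least as wide made up 0.690, 1.39 and 0.995% of the list. The LNCaP LSD1 peak beside PCAT1 was 583 bases wide, against a median of 730 in its list.

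Past the low-coordinate end of the interval that PCA3 shares with PRUNE2, a VCaP LSD1 peak (chromosome 9, 79186186 to 79187247, rank 51 of 9854) overlapped an H3T6ph peak of LNCaP (79186543 to 79186993, rank 17 of 4460). It lay 39.0 kb from the interval, and LSD1 had no called peak there in LNCaP.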
